A study of Mus musculus with 8 samples.

Results

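Adrenergic receptors are the G protein-coupled receptors for noradrenaline and adrenaline. Of the 7 receptor genes listed for this description (*Adra1a*, *Adra1b*, *Adra1d*, *Adra2a*, *Adra2b*, *Adra2c* and *Adrb1*), 6 were found by their gene symbol among the 15039 genes of the deposited table. *Adra2b* had no row and was not analysed here. The RNA came from the PFC of wild-type male mice of the strain C57BL/6NCrljOri, obtained at an age of 6 weeks, and was taken 4 weeks after bilateral injection of an AAV2/1 vector into the PFC. In 4 libraries the vector carried Rnf146 joined to eGFP, and in 4 control libraries it carried eGFP alone. Both vectors used the hsyn promoter, which drives expression in neurons, whereas RNA was taken from the whole dissected tissue. By the study's account, the Rnf146 mice were not an unselected sample, since raised Rnf146 and altered social behaviour were checked first.

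Noradrenaline reaches the PFC through axons from the locus coeruleus, whose cell bodies lie in the brainstem. The α1 receptors couple to Gq/11 and phospholipase C, the α2 receptors to Gi/o, which inhibits adenylyl cyclase, and the β1 receptor to Gs, which stimulates it. In the PFC, the α2A receptor is known for its role in working memory through HCN channels, and α1 receptors for impairing PFC function when noradrenaline release is high under stress.

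The deposited values are on a log2 scale, and the eGFP value and the Rnf146 value with the same replicate number add up to the same sum in all 4 pairs. Each gene therefore carries a mean level and 4 pair differences, and every difference below is taken within a pair, as Rnf146 minus eGFP. A gene's groups are then separate exactly when its 4 differences share a sign. *Rnf146*, which checks the labels, was higher by 2.82, 2.51, 2.66 and 2.58 in the 4 pairs (limma with the replicate block, adjusted p = 3.18e-07). The depth of the libraries is unknown, and the median over all genes of a pair's differences ranged from -0.0020 to 0.0037.

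None of the adrenergic receptor genes was called, where a call means that limma, fitted with replicate numbers as a block, gave an adjusted p of at most 0.1. This was 0 of 6 receptor genes, against 188 of all 15039 genes, or 1.25%. At an unadjusted p below 0.05, 2 of the 6 genes passed, *Adra1d* and *Adra2c*, against 12.4% of all genes. Of the 6 mean differences, 5 were below 0 and 1, that of *Adra2a*, was above 0. Only *Adra2c* had the same direction in all 4 pairs, which was seen in 20.6% of all genes. Without the block, *Adra1d* and *Adra2c* were called, 2 of 6 genes against 21.5% of all genes. That fit treats the centred values as independent libraries, although a gene holds only 4 differences. Its p-values are therefore too small, here and below, and are given only to show the effect of the block.

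**Figure D1:**
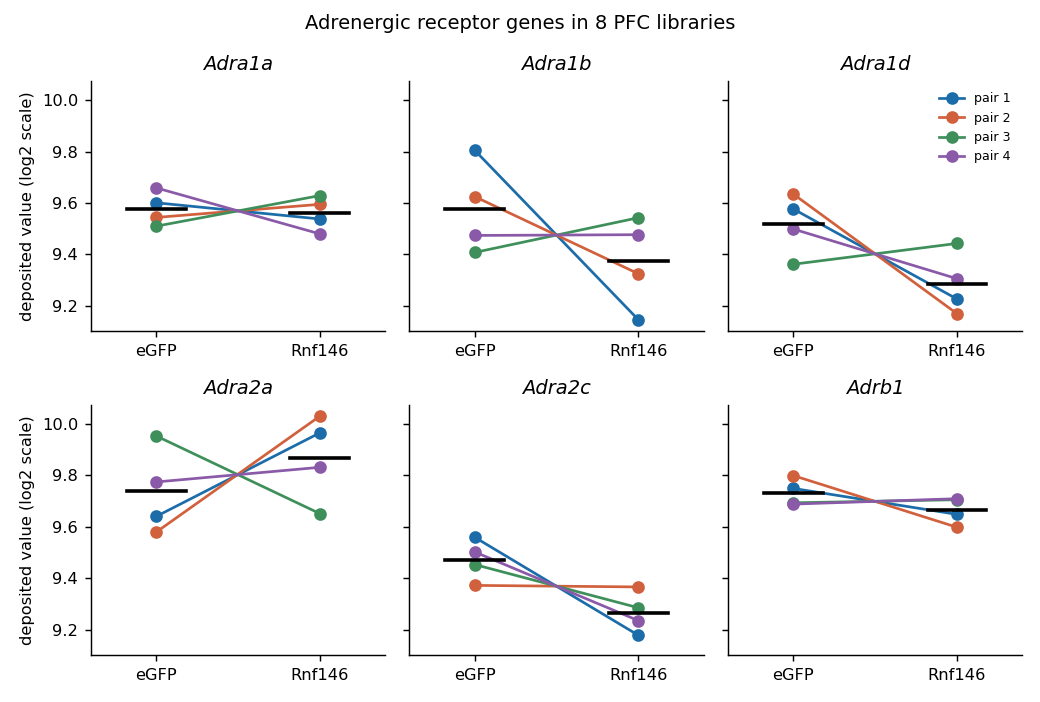
Deposited value (log2 scale) of each adrenergic receptor gene in the 4 eGFP and the 4 Rnf146 libraries, with lines joining libraries of the same replicate number and black bars for the group means. *Adra2c* is the gene whose 4 lines all run downward, from 9.37 to 9.56 in eGFP libraries to 9.18 to 9.37 in Rnf146 libraries.

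Of the α1 receptor genes, *Adra1d* had the largest mean difference. It encodes the α1D receptor and lies on chromosome 2 (GRCm39, 131385993 to 131404693, minus strand). Its values were 9.58, 9.64, 9.36 and 9.50 in eGFP-overexpressing mice and 9.23, 9.17, 9.44 and 9.31 in Rnf146-overexpressing mice. It was lower in pairs 1, 2 and 4 and higher in pair 3, by -0.35, -0.47, -0.19 and 0.08, so the groups overlapped. The mean difference was -0.23 ± 0.24 (SD over n = 4 pairs), no larger than that SD, with a 95% interval of -0.42 to -0.04 and an adjusted p of 0.307 from limma with the block. Without the block, where p-values are too small, the adjusted p from limma was 0.0636. With pair 3 left out, the mean difference was -0.34 with an adjusted p of 0.109 from limma with the block. Without pair 1, 2 or 4 it was -0.19, -0.15 or -0.24, with adjusted p-values of 0.442, 0.694 and 0.545.

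*Adra1b*, which encodes the α1B receptor, was the most variable of the 6 genes. It lies on chromosome 11 (GRCm39, 43665433 to 43792037, minus strand). Its values were 9.81, 9.63, 9.41 and 9.47 in eGFP libraries and 9.15, 9.33, 9.54 and 9.48 in Rnf146 libraries. The differences ran from -0.66 in pair 1 and -0.30 in pair 2 to 0.13 in pair 3 and 0.0029 in pair 4. The mean of -0.21 ± 0.35 (SD over n = 4 pairs) did not reach its SD, with an adjusted p of 0.509 from limma with the block. Its SD over the pairs was larger than that of 98.7% of all genes. Pair 1 carried most of the mean, which was -0.05 without it.

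RefSeq annotates a pair of start sites for *Adra1b*, and the deposited value adds the transcripts of both. The 250 bases before each start are shown to let the pair be compared, with those before the start of *Adrb1*, whose values varied least, beside them. They come from RefSeq on GRCm38.p6, at chr11:43901238-43901487 (minus strand), chr11:43836490-43836739 (minus strand) and chr19:56721867-56722116 (plus strand), and are printed 5′ to 3′ along the gene. Capitals mark a match to GGGCGG, the GC box, on either strand.
Adra1b, upstream start: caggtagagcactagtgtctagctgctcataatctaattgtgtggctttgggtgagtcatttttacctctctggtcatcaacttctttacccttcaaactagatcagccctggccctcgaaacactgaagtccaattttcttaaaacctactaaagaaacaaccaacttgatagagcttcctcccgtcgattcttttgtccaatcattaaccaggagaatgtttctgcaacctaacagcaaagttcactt
Adra1b, downstream start: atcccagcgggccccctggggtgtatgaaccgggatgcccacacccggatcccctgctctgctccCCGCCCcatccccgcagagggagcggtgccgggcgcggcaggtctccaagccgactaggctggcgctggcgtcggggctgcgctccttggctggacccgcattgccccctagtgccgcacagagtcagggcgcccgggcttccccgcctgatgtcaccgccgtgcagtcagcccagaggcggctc
Adrb1: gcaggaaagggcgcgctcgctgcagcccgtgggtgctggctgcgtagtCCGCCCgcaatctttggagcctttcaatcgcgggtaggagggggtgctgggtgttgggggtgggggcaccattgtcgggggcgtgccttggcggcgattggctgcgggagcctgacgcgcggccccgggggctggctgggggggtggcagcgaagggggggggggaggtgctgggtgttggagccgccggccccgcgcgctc
The window before the upstream *Adra1b* start had a GC content of 41.6% and 3 CG steps. The window before the downstream start had 72.8% and 22 CG steps, and that of *Adrb1* 74.0% and 24 CG steps, against medians of 52.4% and 6 CG steps over the 32851 RefSeq windows of this length. One GC box was found before the downstream *Adra1b* start and 1 before *Adrb1*, both in the reverse orientation, and 32.7% of all windows held one. TATAAA (12.4% of windows), CACGTG (6.02%) and CTTTGAT (3.21%), also searched on both strands, were not found in these 3 windows. The motifs were picked after the windows had been seen. Windows were found for 4 of the 6 genes, and those of *Adra2a* and *Adra2c* are not shown.

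*Adra1a*, which encodes the α1A receptor (chromosome 14, GRCm39, 66872700 to 67012152, plus strand), had no common direction. Its values were 9.60, 9.54, 9.51 and 9.66 in eGFP libraries and 9.54, 9.60, 9.63 and 9.48 in Rnf146 libraries. It was lower in pairs 1 and 4, by -0.06 and -0.18, and higher in pairs 2 and 3, by 0.05 and 0.12. The mean difference was -0.02 ± 0.13 (SD over n = 4 pairs), with a 95% interval of -0.15 to 0.12 and an adjusted p of 0.94 from limma with the block.

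Of the α2 receptor genes, *Adra2c* was lower in all 4 pairs. It encodes the α2C receptor and lies on chromosome 5 (GRCm39, 35435663 to 35439107, plus strand). Its values were 9.56, 9.37, 9.45 and 9.50 in eGFP libraries and 9.18, 9.37, 9.29 and 9.24 in Rnf146 libraries. The differences were -0.38, -0.0063, -0.17 and -0.27, so that pair 2 showed almost none. The mean difference was -0.21 ± 0.16 (SD over n = 4 pairs), which exceeded its SD, with a 95% interval of -0.35 to -0.06. It did not pass the correction over all genes, with an adjusted p of 0.244 from limma with the block. The value without the block, where p-values are too small, was 0.0302. The exact two-sided sign-flip test gave p = 0.125, the smallest that 4 pairs allow.

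*Adra2a*, which encodes the α2A receptor (chromosome 19, GRCm39, 54032582 to 54037413, plus strand), had the 1 mean difference above 0. Its values were 9.64, 9.58, 9.95 and 9.77 in eGFP libraries and 9.97, 10.03, 9.65 and 9.83 in Rnf146 libraries. It was higher in pairs 1, 2 and 4, by 0.32, 0.45 and 0.06, and lower in pair 3, by -0.30. The mean of 0.13 ± 0.33 (SD over n = 4 pairs) did not reach its SD, with a 95% interval of -0.12 to 0.38 and an adjusted p of 0.683 from limma with the block. It was 0.28 without pair 3 and 0.03 without pair 2, with adjusted p-values of 0.25 and 0.969. *Adra2a* minus *Adra2c*, as a difference of their pair differences, was 0.70, 0.45, -0.13 and 0.33, and averaged 0.34 ± 0.35 (SD over n = 4 pairs).

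*Adrb1*, which encodes the β1 receptor (chromosome 19, GRCm39, 56710631 to 56721545, plus strand), varied least between the pairs. Its values were 9.75, 9.80, 9.69 and 9.69 in eGFP libraries and 9.65, 9.60, 9.71 and 9.71 in Rnf146 libraries. The differences were -0.10 and -0.20 in pairs 1 and 2 and 0.01 and 0.02 in pairs 3 and 4. The mean of -0.07 ± 0.11 (SD over n = 4 pairs) did not reach its SD, with a 95% interval of -0.19 to 0.06 and an adjusted p of 0.674 from limma with the block.

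**Figure D2:**
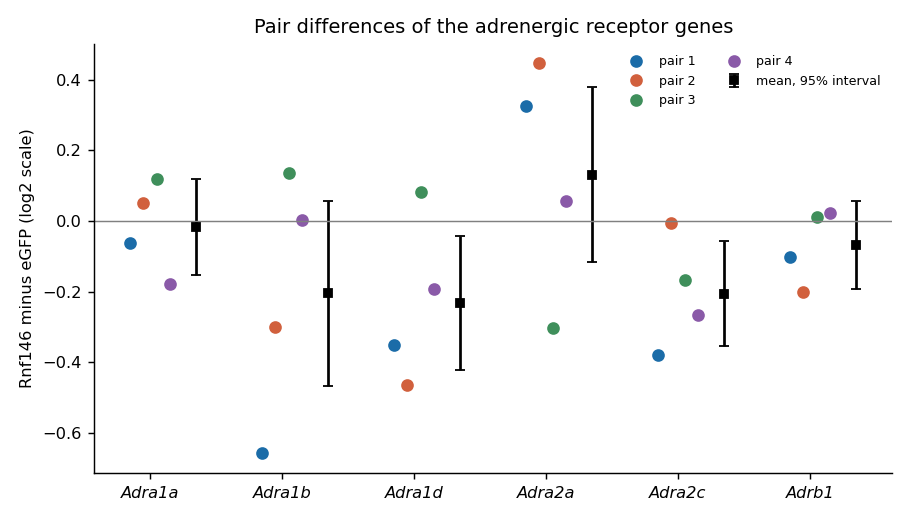
Difference of each adrenergic receptor gene, Rnf146 minus eGFP (log2 scale), in the 4 pairs, with the mean and its 95% interval from limma with the replicate block as a black square and bar. In *Adra1b*, *Adra1d*, *Adra2a* and, at only 0.01, *Adrb1*, pair 3 lies on the other side of 0 from pairs 1 and 2. The intervals of *Adra1d* and *Adra2c* alone lie below 0 before correction over all genes.

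Pair 3 differed from pairs 1 and 2 in several receptor genes. In pair 1, 5 of the 6 genes were lower, in pair 2, 4 were lower, in pair 3, 2 were lower and in pair 4, 3 were lower. The median difference of the 6 genes was -0.23, -0.10, 0.05 and -0.09 in the 4 pairs.

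The deposited scale compresses the changes of genes at this level. A variance-stabilizing curve placed the 6 genes at about 311 (*Adra2c*) to 526 (*Adra2a*) normalized counts, where the value moves by 0.52 to 0.62 when the log2 count moves by 1. On the count scale, *Adra1d* in Rnf146-overexpressing mice was at 0.738 times the eGFP level (95% interval, 0.574 to 0.948) and *Adra2c* at 0.761 times (0.624 to 0.927). The ratio was 0.77 for *Adra1b* (0.552 to 1.07), 0.978 for *Adra1a* (0.83 to 1.15), 1.16 for *Adra2a* (0.878 to 1.53) and 0.925 for *Adrb1* (0.802 to 1.07). These intervals are not corrected over genes, and the adjusted p-values on this scale ran from 0.247 for *Adra2c* to 0.94 for *Adra1a* in limma with the block.

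Per kilobase of the canonical transcript, the approximate count was highest for *Adrb1*, at 158 (range over the 8 libraries, 141 to 177). *Adra2a* followed with 139 (107 to 176), and *Adra1b* with 117 (74.6 to 173). *Adra1a* had 91.7 (82.1 to 102), *Adra2c* 90.2 (69.2 to 115) and *Adra1d* 78.0 (56.5 to 104). The ranges of neighbours in this order overlapped, whereas those of *Adrb1* and of *Adra1a*, *Adra2c* and *Adra1d* did not. The centring within pairs has removed the variation between pairs from these ranges. *Adra1a* has 21 annotated transcripts, and per length of the longest it would come last, at 36.8.

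The genes whose 4 pair differences lay closest to those of *Adra1d* were *Medag*, *Pum3* and *Cdkn1a*, at a root mean square distance of 0.0349, 0.0354 and 0.0506 over the 4 pairs. For *Adra2c*, *Gsg1l* and *Pcnx2* lay closest, at 0.0243 and 0.0657. The likeness rests on 4 values from the same libraries, and none of these genes was called (adjusted p between 0.208 and 0.274 from limma with the block).

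Genes that make, clear or transmit the noradrenaline signal were read from lists of 60 genes, of which 56 had values. Of these, 2 were called, 1 higher and 1 lower, or 3.57% against 1.25% of all genes. Their median difference was -0.0079, against 0.00086 over all genes, and 16 of the 56 (28.6%, against 20.6% of all genes) had the same direction in all 4 pairs. Without the block, 22 of the 56 were called (39.3%, against 21.5% of all genes).

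*Grk5*, which encodes a G protein receptor kinase that phosphorylates activated receptors, was the gene that rose. Its differences were 0.47, 0.31, 0.30 and 0.30 and averaged 0.35 ± 0.08 (SD over n = 4 pairs), at an adjusted p of 0.0246 from limma with the block. The call was lost without pair 2 and without pair 4, with adjusted p-values of 0.117 and 0.165. In the same desensitization list of 10 genes, *Grk3* had the lowest mean difference, at -0.10 ± 0.12 with an adjusted p of 0.487.

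*Kcnj9*, which encodes the GIRK3 subunit of potassium channels opened by Gi/o-coupled receptors, was the gene that fell. Its differences were -0.29, -0.36, -0.28 and -0.18 and averaged -0.28 ± 0.07 (SD over n = 4 pairs), at an adjusted p of 0.0546 from limma with the block. The call was lost without pair 2, pair 3 or pair 4, with adjusted p-values of 0.264, 0.119 and 0.192. The other 9 genes of the Gi/o list were not called, and *Gnai1*, a Gi α subunit, had the highest mean difference, at 0.12 ± 0.12.

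In the Gq/11 list, 0 of 10 genes were called. *Plcb4*, a phospholipase C, had a mean difference of 0.18 ± 0.14, the highest of the list, with an adjusted p of 0.268 from limma with the block. In the Gs list, 0 of 19 genes were called. *Adcy5*, the adenylyl cyclase that predominates in the striatum, had the highest mean, 0.41 ± 0.47, with differences of -0.11, 1.03, 0.37 and 0.34. Its adjusted p from limma with the block was 0.305. With each pair left out in turn, it ran from 0.079 (without pair 1, mean 0.58) to 0.648 (without pair 2, mean 0.20). *Adcy6*, another adenylyl cyclase, had the lowest, -0.24 ± 0.17, with an adjusted p of 0.196. In the list of noradrenaline synthesis, uptake and breakdown, 0 of 7 genes were called. The highest mean was that of *Ddc*, which makes dopamine from its precursor, at 0.09 ± 0.08 with an adjusted p of 0.51. *Dbh*, *Slc6a2* and *Slc18a2*, which define noradrenaline neurons or monoamine neurons, had no row in the table.

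**Figure D3:**
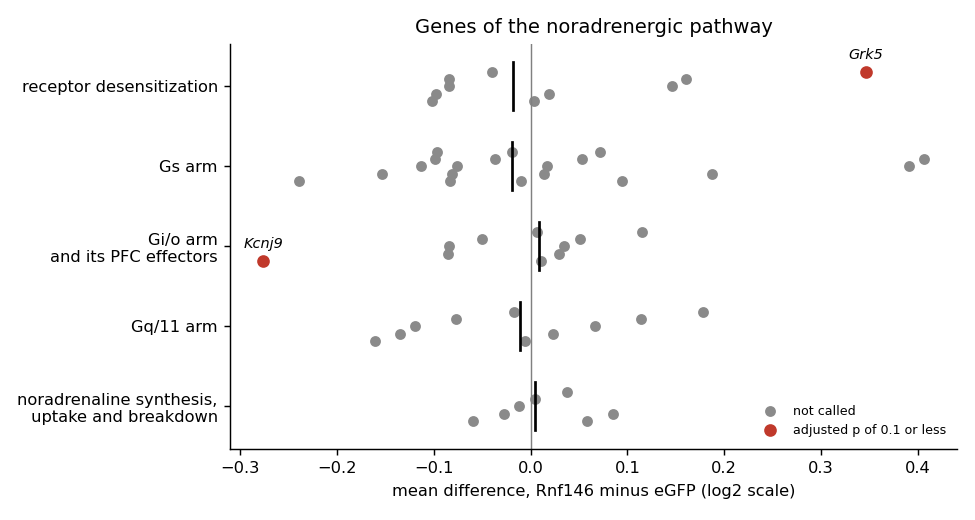
Mean difference, Rnf146 minus eGFP (log2 scale), of the 56 genes of the noradrenergic pathway in 5 lists, with called genes (limma with the replicate block) in red and the median of each list as a black bar. *Grk5* at 0.35 and *Kcnj9* at -0.28 are the called genes, and the list medians lie between -0.02 and 0.01.

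Of 9 marker lists for cell types and regions, 4 held at least 1 called gene and 5 held none. In bulk tissue, fewer cells of a type and less RNA per cell cannot be told apart. The 8 markers of cortical excitatory neurons, all of them in the table, averaged 12.36 to 12.55 in eGFP libraries and 12.19 to 12.38 in Rnf146 libraries. Their difference was -0.36, -0.35, 0.02 and -0.16 in the 4 pairs, and 2 of the 8 were called, *Slc17a7* and *Neurod2*, both lower. Of the receptor genes, *Adra1b* and *Adra1d* also had their lowest differences in pairs 1 and 2 and their highest in pair 3, and *Adrb1* had its lowest in pairs 1 and 2. *Adra2a* ran the other way, with its highest differences in pairs 1 and 2 and its lowest in pair 3. *Adra2c* and *Adra1a* followed neither order, with the lowest differences in pairs 1 and 4. The 7 genes of the interneuron list averaged 11.02 to 11.08 in eGFP and 11.17 to 11.23 in Rnf146 libraries. The differences of this mean were 0.09, 0.19, 0.20 and 0.21. The rise of the list's mean came from the 3 called, *Gad1*, *Gad2* and *Slc32a1*. The other 4, *Pvalb*, *Sst*, *Vip* and *Lhx6*, had mean differences below 0, and the list's median was -0.03.

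Of the 7 markers of septum and basal forebrain, 4 had values, all 4 were called higher, and the differences of their mean were 0.57, 0.76, 0.32 and 0.61. Their mean level was 9.47 to 9.69 in eGFP libraries and 10.01 to 10.23 in Rnf146 libraries, and *Chat* and *Lhx8* were among the 3 with no row. The 9 striatal markers had differences of -0.11, 1.36, 0.74 and 0.30, with means of 10.01 to 10.74 and 10.63 to 11.36 in the groups and 0 called. The 5 oligodendrocyte markers had -0.18, 0.53, 1.00 and 0.58, from 12.62 to 13.21 in eGFP libraries and from 13.03 to 13.62 in Rnf146 libraries, also with 0 called. The 5 microglial markers averaged 10.12 to 10.22 in eGFP and 9.94 to 10.04 in Rnf146 libraries, with differences of -0.18, -0.28, -0.11 and -0.08 and 0 called. The 5 astrocyte markers averaged -0.04 ± 0.02 and the 7 endothelial and mural markers 0.04 ± 0.04 (SD over n = 4 pairs), each with 0 called. Of the 4 ependymal markers 2 had values, and *Foxj1* was called higher. The part of these markers in the receptor values was not tested.

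**Figure D4:**
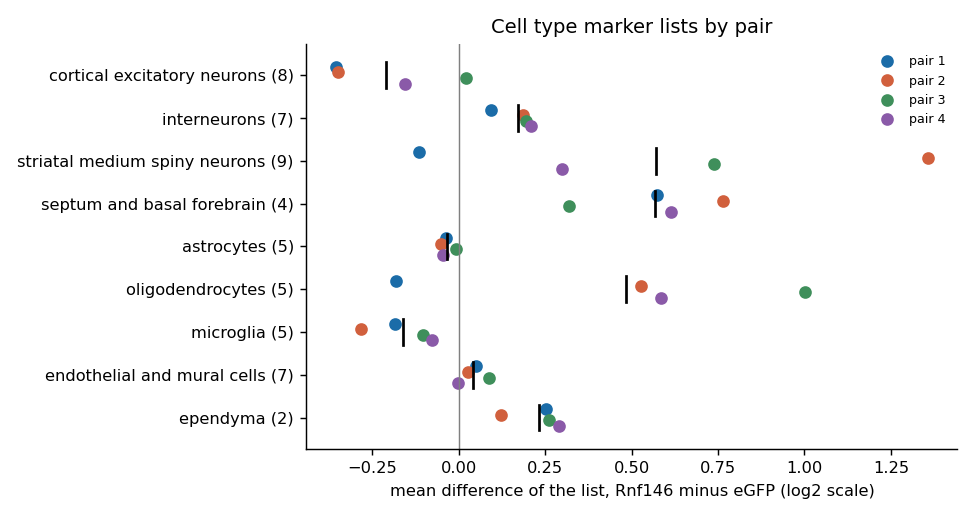
Mean difference, Rnf146 minus eGFP (log2 scale), of the marker genes of 9 cell types or regions in each of the 4 pairs, with the number of genes in the table in brackets and the mean of the pairs as a black bar. The cortical excitatory list is lower in pairs 1, 2 and 4 and at 0.02 in pair 3, and the list of septum and basal forebrain is higher in all 4 pairs.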

How the data were processed

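RNA sequencing covered 8 PFC libraries, 4 a group. Per the labels, libraries were made with a stranded mRNA kit. The authors used Cutadapt for trimming, then Salmon 1.9.0 for transcript abundance, against GENCODE vM30 (GRCm39), and the submitters' processing notes also name DESeq2. The deposited table is named normalized counts, but its values are log2 values, from 7.86 to 18.8, centred within same-numbered pairs (largest spread of pair sums, 1.4e-13). Normalization, transformation, centring and the strand setting of the counting are not given in the sources used here. No per-sample column was left unused. Depth is unknown, so the precision that counting gives is unknown too.

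Differences were fitted over all 15039 genes with limma 3.58.1 in R 4.3.3 (lmFit, eBayes with trend) and Benjamini-Hochberg adjustment, with the replicate number as a block, since the centred values of a gene hold 4 differences. The pairing comes from the labels' replicate numbers and the centring, which fixes the correlation of same-numbered libraries at -1. Nothing says whether a pair shared a cage, day or batch. The labels do not say that each library was a separate mouse, and otherwise the p-values measure only the spread between these libraries. The fit was tested on simulated data in which each gene varied independently of the others. That test does not cover shifts that many genes share within a pair.

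Approximate counts come from a variance-stabilizing curve fitted to mean counts of 294 genes of the deposited table (median absolute residual 0.0058, largest 0.539). The authors give these mean counts apart from that table, in their list of differentially expressed genes. The approximate counts were transformed to log2 with an offset of 0.5. Coordinates and transcript lengths are those of GENCODE vM39 on GRCm39. In that annotation, lncRNA genes on the opposite strand overlap each receptor gene except *Adra2c*, and none of them had a row. Python 3.11.15 with numpy 2.4.6 and pandas 2.3.3 was used for the rest.

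The receptor genes and lists were chosen with earlier results of these data known. Named besides them are called pathway genes, the highest and lowest mean of each pathway list, and the 3 genes nearest in pattern to the 2 receptor genes with the largest mean differences. Some genes that this rule names are not reported here. The alternatives tried were no block, each pair left out, median centring, quantile normalization, no trend, robust variances, the genes with the lowest means left out (11279 kept), log2 normalized counts and an adjusted p of 0.05.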

Additional observations from a re-analysis of the deposited data

Results flagged for a closer look

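In *Grk5*, pair 1 stood apart at a difference of 0.465, against 0.304 to 0.314 in the other 3 pairs. In *Plcb4*, pair 1 stood apart at 0.381, against 0.086 to 0.136 in the other 3 pairs. Both lie past the 95% critical value of Dixon's test for 4 values, which chance passes in about 5% of groups. Of the 17 genes looked at in this way, 2 had such a pair, against 5.39% of all genes. None of the 6 adrenergic receptor genes had one.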

How the results depend on the processing

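Without the replicate block, 3226 of all genes were called in place of 188, 2 of the receptor genes in place of 0 and 22 of the pathway genes in place of 2. That fit takes the centred values for 8 independent libraries, although a gene holds only 4 differences, so its p-values are too small. At an adjusted p of 0.05, 80 genes were called, 0 receptor genes and 1 pathway gene. With each pair left out in turn, 14 (without pair 4) to 421 (without pair 1) of all genes were called and 0 to 4 of the pathway genes, whereas 0 receptor genes were called in each case. The number of receptor genes with the same direction in the remaining pairs was 1 to 3, and 3 without pair 3. A shared direction is easier to reach in 3 pairs than in 4. Its share over all genes was computed for 4 pairs only, so these counts have no background beside them. The mean difference of *Adra1a* ran from -0.064 (without pair 3) to 0.036 (without pair 4, where its sign changed). No other receptor gene changed sign, and 63 of the 66 values of the receptor genes under alternatives kept their sign and their side of the threshold. Under median centring, quantile normalization, no trend, robust variances, the filter and log2 normalized counts, between 156 and 201 of all genes, 0 receptor genes and 2 pathway genes were called. The precision is limited by the 4 pair differences a gene and by the unknown depth.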
